A study of Mus musculus with 20 samples.

Results

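The genes of DNA damage signalling and repair are a list of 40, of which 39 were measured on these arrays. The list covers the damage kinases and checkpoint, the MRN complex, homologous recombination, non-homologous end joining, base excision and single-strand break repair, mismatch repair, nucleotide excision repair and the Fanconi anaemia pathway. Every probe whose accession RefSeq assigns to a listed gene was taken, which gave 55 of the 41174 non-control probes. Of these 54 passed the detection filter below, and 16 genes had 2 probes. Atr is not analysed here, because no probe accession matched it.

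The cells were MEFs (mouse embryonic fibroblasts), cultured for 24 h with serum of female C3H/HeN mice. In the 10-day set, 5 arrays had serum of mice irradiated at 4 Gy and 5 had serum of unirradiated mice. In the 20-day set, 5 arrays had serum of mice irradiated at 8 Gy and 5 had serum of unirradiated mice. The labels describe the irradiation as "L/MDR" without expanding it, and they do not say what the days count. The labels place the irradiation on the serum donors. Dose and set change together, so 4 Gy and 8 Gy cannot be told apart from the 10-day and 20-day sets. Nothing in the labels says whether the 5 arrays of a group stand for different cultures or for different serum donors, and the p-values below therefore reflect array-to-array spread that may be technical.

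A cell that finds broken or altered DNA signals the damage and repairs it by a route that fits the lesion. ATM responds to double-strand breaks and passes the signal to checkpoint kinases that hold the cell cycle. Breaks are then rejoined either by copying the sister chromatid (homologous recombination) or by direct ligation (end joining). Damaged bases, mispaired bases and bulky lesions are cut out by base excision, mismatch and nucleotide excision repair, and several of the recombination genes are transcribed mostly in dividing cells.

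The promoters of 5 genes are shown because the signals of these genes did not overlap between 8 Gy and control serum in the 20-day set, and because they differ in the motifs they hold. Each is 300 bases, 250 before and 50 after the gene's start, from RefSeq on GRCm38.p6. Capitals mark matches on either strand to an E2F-type site (TTTCCCGC, TTTGGCGC, TTTCGCGC or TTTGCCGC) or a CCAAT box (CCAAT). The cell-cycle element CHR (TTTGAA) was searched too and has no match in these 5 windows, and no matches overlap. Brca2 lies at chr5:150522371-150522670 on the plus strand, Msh6 at chr17:87974800-87975099 on the plus strand, Xpa at chr4:46196262-46196561 on the minus strand, Ercc2 at chr7:19381767-19382066 on the plus strand and Chek1 at chr9:36726609-36726908 on the minus strand.
Brca2: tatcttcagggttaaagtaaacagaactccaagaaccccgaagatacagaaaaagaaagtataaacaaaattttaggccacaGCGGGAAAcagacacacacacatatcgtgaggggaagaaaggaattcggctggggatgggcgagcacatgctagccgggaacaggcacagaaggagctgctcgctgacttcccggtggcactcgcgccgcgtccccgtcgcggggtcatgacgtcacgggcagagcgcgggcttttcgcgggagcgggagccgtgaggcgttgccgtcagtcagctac
Msh6: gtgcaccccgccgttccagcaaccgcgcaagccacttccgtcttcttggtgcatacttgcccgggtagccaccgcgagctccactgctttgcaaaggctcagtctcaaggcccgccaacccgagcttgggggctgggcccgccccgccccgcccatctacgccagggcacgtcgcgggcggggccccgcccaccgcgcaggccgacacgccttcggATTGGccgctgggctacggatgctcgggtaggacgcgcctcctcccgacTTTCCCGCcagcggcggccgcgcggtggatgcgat
Xpa: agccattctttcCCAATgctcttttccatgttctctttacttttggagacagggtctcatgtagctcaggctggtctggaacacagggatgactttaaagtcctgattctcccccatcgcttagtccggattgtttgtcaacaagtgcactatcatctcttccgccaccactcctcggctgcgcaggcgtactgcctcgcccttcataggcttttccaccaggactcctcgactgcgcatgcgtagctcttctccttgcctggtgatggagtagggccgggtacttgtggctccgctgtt
Ercc2: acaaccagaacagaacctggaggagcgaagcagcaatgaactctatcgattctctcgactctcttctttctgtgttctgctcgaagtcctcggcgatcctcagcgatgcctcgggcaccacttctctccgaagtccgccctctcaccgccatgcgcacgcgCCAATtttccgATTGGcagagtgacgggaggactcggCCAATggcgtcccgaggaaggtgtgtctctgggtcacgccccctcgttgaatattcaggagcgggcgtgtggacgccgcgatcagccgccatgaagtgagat
Chek1: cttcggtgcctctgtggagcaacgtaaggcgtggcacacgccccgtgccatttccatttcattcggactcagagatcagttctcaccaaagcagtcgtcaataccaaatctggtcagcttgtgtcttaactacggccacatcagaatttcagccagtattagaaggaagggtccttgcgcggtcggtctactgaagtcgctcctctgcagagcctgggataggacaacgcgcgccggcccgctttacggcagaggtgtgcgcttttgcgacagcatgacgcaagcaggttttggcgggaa
Brca2 and Msh6 each hold 1 E2F-type match, Msh6 and Xpa hold 1 CCAAT box, and Ercc2 holds 3. The Chek1 window holds none of these letters. RefSeq promoters were matched for 32 of the 40 genes, 35 promoters in all, and not for Ddb2, Ercc3, Fancd2, Nbn, Prkdc, Rad50, Xpc or Xrcc2. An E2F-type match stood in 5 of the 35 (14.3%), at Bard1, Brca2, Chek2, Msh6 and Xrcc6, against 2.26% of the 32851 mouse promoters of that length. A CCAAT box stood in 54.3% of the 35, against 37.4% of all, and a CHR match in 1, that of Bard1, against 17.9% of all. A match describes the letters in the window and not a bound site.

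Signal is the processed intensity of a probe on the log2 scale, less the 75th percentile over probes of the same array, so a value of 0 is the level at that percentile. Values of different probes are not set against each other. Testing required a probe well above background on every array of some group, and all 39 measured members met this. For a gene with 2 probes, the probe with the higher mean stands for it. The 75th percentile of processed intensity was 731 to 1464 across the arrays, and 56.8 to 67.2% of probes were well above background. No spot was saturated. All 16 fibroblast markers were well above background in every group. Changes come from limma across 20226 entries, with Benjamini-Hochberg adjustment over all of them and a threshold of 0.05. The entries are 12910 named genes and, where RefSeq gave no name, single probes. Counts and shares of all genes below are over these entries.

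**Figure D1:**
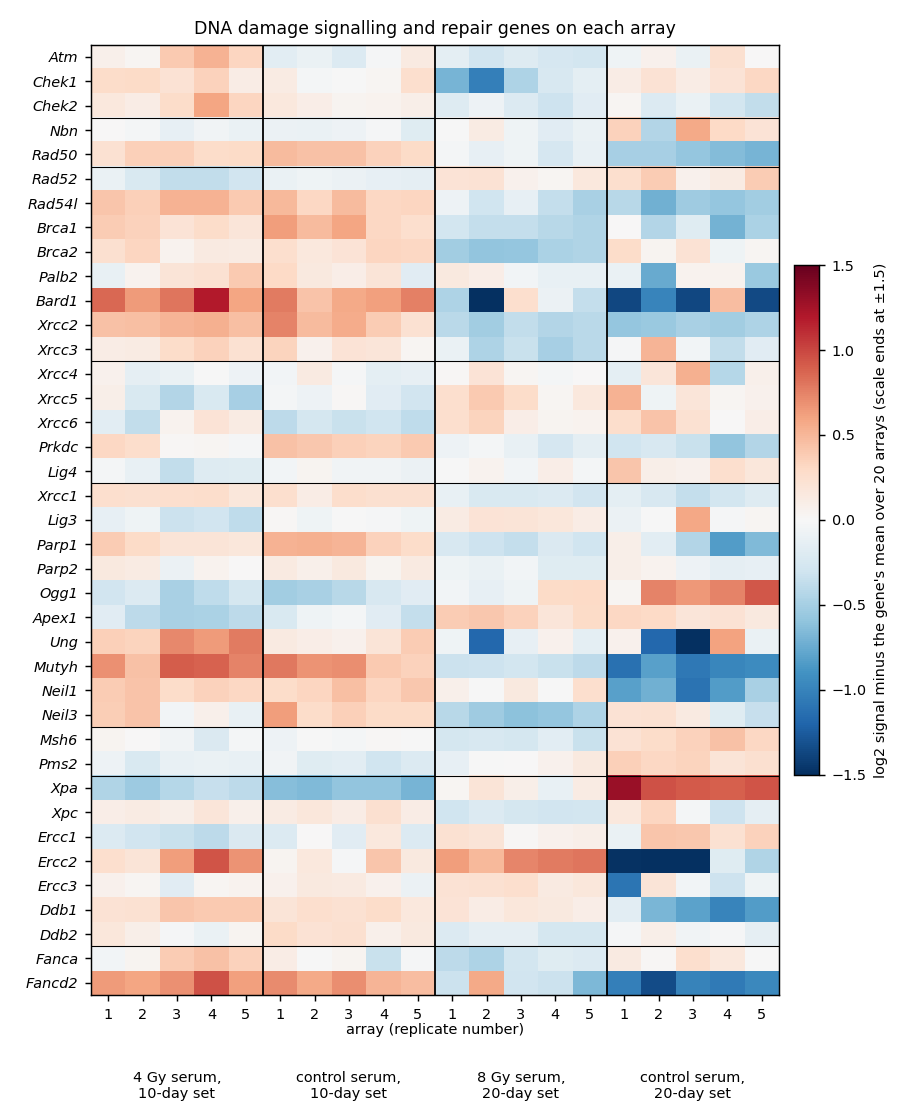
Each row is a repair gene, grouped by pathway, and each column is an array, with serum of irradiated mice left of control serum in each set. Colour is the log2 signal minus the mean of that gene over the 20 arrays. Mutyh, Xrcc2 and Rad54l are lower on every 20-day array than on every 10-day array, and Xpa is highest on the 5 control arrays of the 20-day set.

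With 8 Gy serum, 22 of the 39 genes changed against control serum in the 20-day set. There were 9 that rose and 13 that fell. Across all genes tested, 17.3% rose and 28.8% fell, and the median log2 change was -0.010 for the members and -0.094 for all genes. Signals of the 2 groups did not overlap in 14 of the 39 genes, against 28.1% of all genes tested. When arrays were scaled to their median, the all-gene median was -0.24, the members split into 6 higher and 17 lower, and 11.7% of all genes rose and 40.0% fell. The 20-day groups lie on 4 slides, each with 1 group, so serum and slide cannot be told apart within a slide. Control replicates 1 to 3, which share a slide, had 154 to 181 outlier-flagged spots, against 72 to 124 on the 8 Gy arrays. On these 3 arrays 56.8 to 60.0% of probes were well above background. The share was 64.1 and 62.3% on control replicates 4 and 5, and 60.9 to 63.4% on the 8 Gy arrays. With the slide as a random block 15 genes were called, 7 that rose and 8 that fell, while 10.5% of all genes rose and 18.7% fell. Atm, Ddb2, Ercc3, Lig4, Rad54l, Xpc and Xrcc3 lost their call there, with adjusted p between 0.0723 and 0.195. Leaving out 1 array also ended some of these calls. Atm lost its call without control replicate 2 or 4 or 8 Gy replicate 2, 4 or 5 (adjusted p 0.0517 to 0.0834). Ddb2 lost it without any of control replicates 1 to 4 or 8 Gy replicate 1, 4 or 5 (0.0548 to 0.103), and Lig4 without control replicate 1, 4 or 5 or 8 Gy replicate 1, 2, 3 or 5 (0.059 to 0.114). Xpc lost it without control replicate 2 (0.0504).

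**Figure D2:**
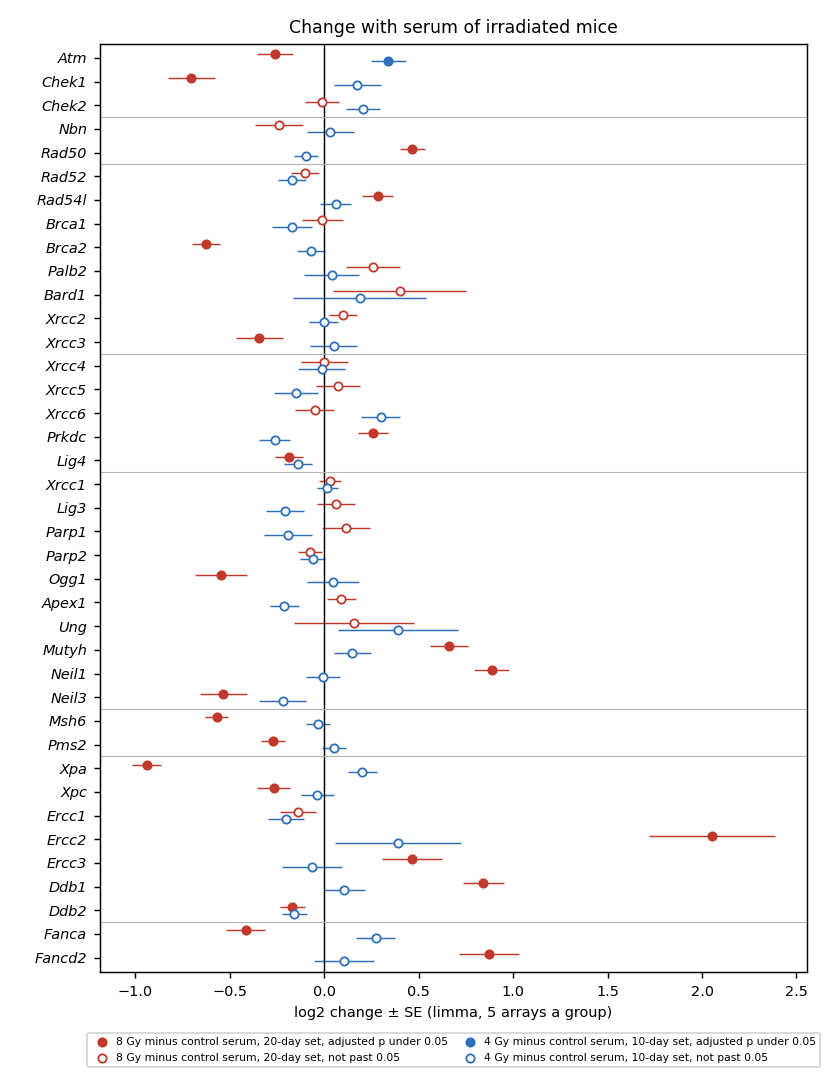
Points give the log2 change ± SE of each gene with serum of irradiated mice against control serum, for 8 Gy in the 20-day set (red) and 4 Gy in the 10-day set (blue); filled points passed 0.05. The 8 Gy changes reach 0.89 for Neil1 and -0.94 for Xpa among probes detected on every array of both groups. The Ercc2 point at 2.05 was above background on 2 of 5 control arrays, and 1 of the 39 blue points, Atm, is filled.

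Nucleotide excision repair, which removes bulky and ultraviolet lesions, had 3 of 7 genes rise and 3 fall. Of all genes tested, 17.3% rose and 28.8% fell. Xpa, which checks the lesion and assembles the incision complex, had signals of 0.25, 0.41, 0.31, 0.11 and 0.34 with 8 Gy serum, against 1.52, 1.18, 1.14, 1.12 and 1.17 with control serum. All 5 arrays with 8 Gy serum lay below every control array, a log2 change of -0.94 ± 0.078 (SE, limma adjusted p = 6.59e-08), or 1.92-fold lower. Ddb1, which binds ultraviolet lesions with Ddb2 and serves as an adaptor of ubiquitin ligases, had signals of 3.09, 2.99, 3.05, 3.02 and 2.98 with 8 Gy serum. On control arrays Ddb1 had 2.72, 2.19, 2.08, 1.88 and 2.04. The groups did not overlap, and Ddb1 rose by 0.84 ± 0.11 (limma adjusted p = 7.28e-06). Ercc2, a helicase of the TFIIH complex, had signals of -3.55, -3.69, -3.45, -3.39 and -3.38 with 8 Gy serum, against -5.66, -6.94, -6.13, -4.36 and -4.63 with control serum. It rose by 2.05 ± 0.33 (limma adjusted p = 7.79e-05), and among control arrays its probe cleared the background criterion on replicates 4 and 5 only. Those 2 arrays share a slide, and against them alone the change was 1.00 and passed.
Ercc3, the other TFIIH helicase, rose by 0.46 ± 0.16 (limma adjusted p = 0.0224), with control replicate 1 at 0.74 and the others at 1.53 to 2.03. The Ercc3 call ended with median scaling, with normexp background correction and with only the 2 groups fitted. Xpc, which recognises lesions ahead of the other factors, had signals of 0.013, 0.10, 0.043, 0.015 and 0.038 with 8 Gy serum, against 0.47, 0.63, 0.28, -0.0028 and 0.17 with control serum. The groups overlap, and Xpc fell by 0.27 ± 0.088 (limma adjusted p = 0.0183). Ddb2 had -1.53, -1.47, -1.46, -1.59 and -1.59 with 8 Gy serum, against -1.35, -1.24, -1.39, -1.35 and -1.47 with control serum, and fell by 0.17 ± 0.067 (limma adjusted p = 0.0458). Ercc1, a subunit of the nuclease that cuts beside the lesion, changed by -0.14 and did not pass.

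Base excision and single-strand break repair, which replaces oxidised, deaminated or missing bases, had 2 of 10 genes rise and 2 fall. Of all genes tested, 17.3% rose and 28.8% fell. Neil1, a glycosylase that removes oxidised bases, had signals of -2.30, -2.39, -2.23, -2.38 and -2.13 with 8 Gy serum, against -3.19, -3.09, -3.49, -3.22 and -2.86 with control serum. The groups did not overlap, and Neil1 rose by 0.89 ± 0.091 (limma adjusted p = 6.18e-07), or 1.85-fold. Mutyh, which removes adenine paired with oxidised guanine, had -2.85, -2.84, -2.80, -2.86 and -2.92 with 8 Gy serum, against -3.65, -3.35, -3.61, -3.51 and -3.47 with control serum. It rose by 0.66 ± 0.099 (limma adjusted p = 3.56e-05). Ogg1, which removes oxidised guanine itself, had 0.13, 0.054, 0.12, 0.46 and 0.47 with 8 Gy serum, against 0.20, 0.92, 0.82, 0.92 and 1.10 with control serum. Control replicate 1 of Ogg1 lay within the range of the 8 Gy arrays, and the gene fell by 0.54 ± 0.14 (limma adjusted p = 0.00337). Neil3, a related glycosylase, also fell, by 0.54 ± 0.12 (limma adjusted p = 0.00175), with no overlap between the groups. Against the 2 control arrays of slide 2 alone Neil3 changed by -0.26 with adjusted p = 0.131.
Parp1, which senses strand breaks, had 1.55, 1.48, 1.44, 1.58 and 1.50 with 8 Gy serum. Its control arrays spread over 1.88, 1.64, 1.35, 0.96 and 1.14, around the 8 Gy values. The change of 0.12 did not pass. Xrcc1, Lig3, Parp2, Apex1 and Ung did not pass either, with changes of 0.029, 0.064, -0.074, 0.091 and 0.16.

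In mismatch repair, which corrects mispaired bases left by replication, both genes fell, as did 28.8% of all genes. Msh6, a subunit that recognises mismatches, had signals of 2.80, 2.83, 2.81, 2.92 and 2.73 with 8 Gy serum, against 3.28, 3.35, 3.42, 3.51 and 3.38 with control serum. The groups did not overlap, and Msh6 fell by 0.57 ± 0.063 (limma adjusted p = 1.29e-06). Pms2, which acts after recognition, had -0.39, -0.27, -0.26, -0.20 and -0.12 with 8 Gy serum, against 0.096, 0.042, 0.067, -0.067 and -0.021 with control serum. It fell by 0.27 ± 0.064 (limma adjusted p = 0.00211), again without overlap.

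Of the kinases, Chek1, which restrains the cell cycle when replication is disturbed, had signals of -2.15, -2.47, -1.92, -1.68 and -1.59 with 8 Gy serum. With control serum Chek1 had -1.34, -1.24, -1.34, -1.24 and -1.14. All 8 Gy arrays lay below all control arrays, and replicates 1 to 3, which share a slide, lay below replicates 4 and 5. Chek1 fell by 0.70 ± 0.12 (limma adjusted p = 0.000165). Atm had -1.46, -1.61, -1.51, -1.57 and -1.59 with 8 Gy serum, against -1.38, -1.26, -1.41, -1.08 and -1.31 with control serum, and fell by 0.26 ± 0.095 (limma adjusted p = 0.0311). Chek2, the kinase that ATM activates directly, changed by -0.010 and did not pass.

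In the MRN complex, which binds broken ends, Rad50 had -0.29, -0.39, -0.33, -0.52 and -0.38 with 8 Gy serum, against -0.76, -0.76, -0.85, -0.91 and -0.97 with control serum. The groups did not overlap, and Rad50 rose by 0.47 ± 0.064 (limma adjusted p = 1.39e-05). With normexp background correction the Rad50 change was 0.24 and did not pass (adjusted p = 0.0823). Nbn, the subunit that recruits ATM, changed by -0.24 and did not pass, with control arrays from 1.84 to 2.84.

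In homologous recombination 1 of 8 genes rose and 2 fell, where 17.3% of all genes rose and 28.8% fell. Brca2, a mediator of recombination at broken ends, had -0.25, -0.31, -0.30, -0.19 and -0.18 with 8 Gy serum, against 0.56, 0.32, 0.50, 0.22 and 0.31 with control serum. The groups did not overlap, and Brca2 fell by 0.63 ± 0.073 (limma adjusted p = 2.69e-06). Brca1, which acts upstream of Brca2, had 0.052, -0.032, -0.027, -0.090 and -0.12 with 8 Gy serum, against 0.33, -0.12, 0.14, -0.38 and -0.15 with control serum. The control arrays lay on both sides of the 8 Gy arrays, and the change of -0.010 did not pass. Rad54l, a motor protein that aids strand exchange, rose by 0.28 ± 0.082 (limma adjusted p = 0.00832), and Xrcc3 fell by 0.34 ± 0.12 (limma adjusted p = 0.0301). Both calls ended with normexp and with only the 2 groups fitted, and that of Rad54l also with median scaling. Without control replicate 2, the highest control array of Xrcc3, the change was -0.21 and did not pass (adjusted p = 0.0822), as without 8 Gy replicate 2, 4 or 5. Palb2, which bridges Brca1 and Brca2, changed by 0.26, Xrcc2 by 0.099 and Rad52 by -0.10, and none of these passed. Bard1, the partner of Brca1, was not well above background on any 8 Gy array and on 1 control array, so no change is given for it here.

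In end joining, Prkdc, the catalytic subunit of DNA-PK, rose by 0.26 ± 0.080 (limma adjusted p = 0.013), and Lig4, the ligase of this route, fell by 0.19 ± 0.074 (limma adjusted p = 0.0479). Prkdc lost its call when arrays were scaled to their median (0.12, adjusted p = 0.323). Xrcc6, which forms the Ku ring with Xrcc5, had 0.69, 0.78, 0.54, 0.48 and 0.49 with 8 Gy serum, against 0.71, 0.87, 0.67, 0.45 and 0.54 with control serum. These ranges overlap, and the change of -0.051 did not pass. Xrcc5 changed by 0.075 and Xrcc4, the partner of Lig4, by 0.00081.
In the Fanconi anaemia pathway, which repairs crosslinks between strands, Fancd2, the protein switched on by ubiquitin, rose by 0.87 ± 0.16 (limma adjusted p = 0.000214). Its signals were -3.11, -2.23, -3.08, -3.11 and -3.46 with 8 Gy serum, against -3.81, -4.14, -3.79, -3.86 and -3.75 with control serum. Fanca, a subunit of the core complex that adds the ubiquitin, fell by 0.42 ± 0.10 (limma adjusted p = 0.00316), without overlap. The 2 genes of this pathway thus moved in opposite directions.

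**Figure D3:**
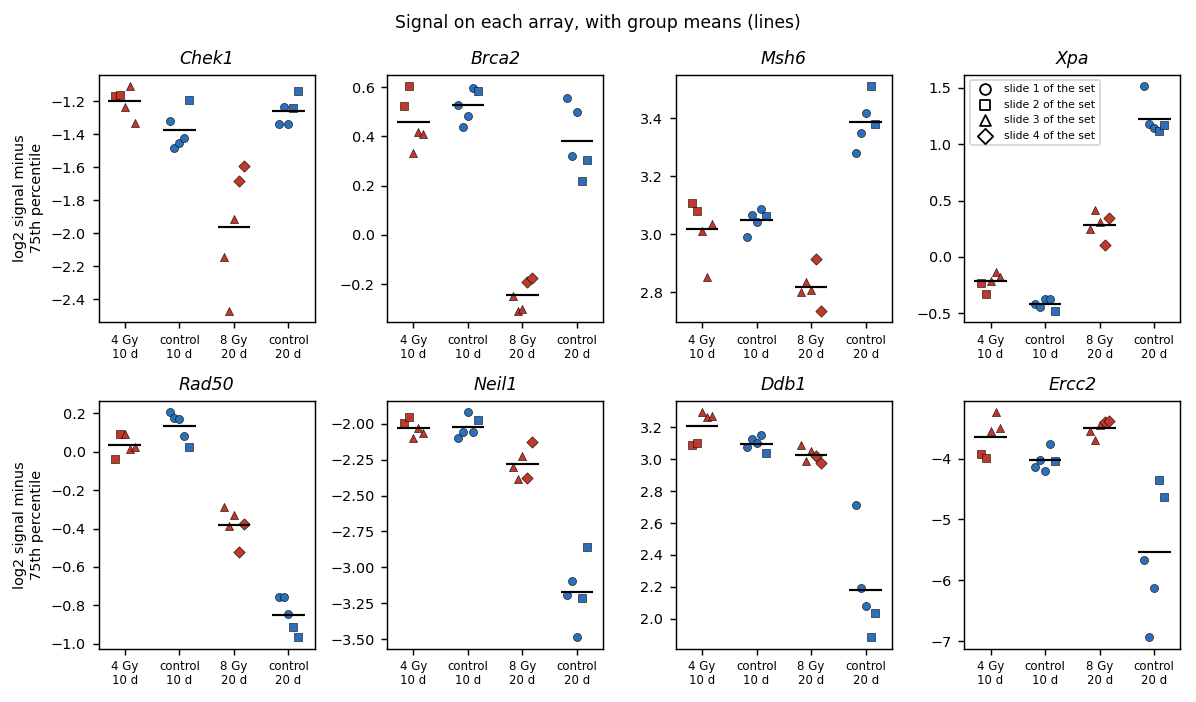
Each panel shows the log2 signal of 1 gene on every array, with serum of irradiated mice (red) left of control serum (blue) in each set; marker shapes give the slide within the set and lines the group means. In all 8 panels the 8 Gy arrays lie apart from the control arrays of the 20-day set.

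With normexp background correction, 4 of these called changes were smaller by over 1.5 times and still passed, at -0.35 for Chek1, 0.45 for Neil1, 0.85 for Ercc2 and 0.49 for Fancd2. Msh6 changed by -0.36 after quantile normalization, and Pms2 by -0.41 when arrays were scaled to their median and by -0.46 with normexp.

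Some genes gave different answers from their 2 probes. Of 15 genes with both probes tested, both were called in the same direction with 8 Gy serum for 2, and in opposite directions for 2. Chek1 fell on both (-0.70 and -0.75), and Ogg1 fell on both (-0.54 and -1.19). Atm had changes of -0.26 and 0.39, and Xpc of -0.27 and 0.32, all 4 past the threshold. Brca1 had -0.010 on the probe used here and 0.59 on the other (limma adjusted p = 0.000202), Parp2 had -0.074 and 0.77, and Chek2 had -0.010 and -0.81. The second Chek2 probe was well above background on 3 of 5 arrays with 8 Gy serum and 4 of 5 control arrays. Brca2 had -0.63 and 0.45, and its second probe did not pass and was well above background on 4 of 5 control arrays. The signs matched in 6 of the 15 genes. Where the mean of the tested probes stood for a gene, the call of Brca2 ended (-0.086), and so did that of Mutyh (0.66, adjusted p = 0.0616). Those of Atm, Lig4 and Xpc ended as well, while Brca1, Chek2 and Parp2 gained a call.

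**Figure D4:**
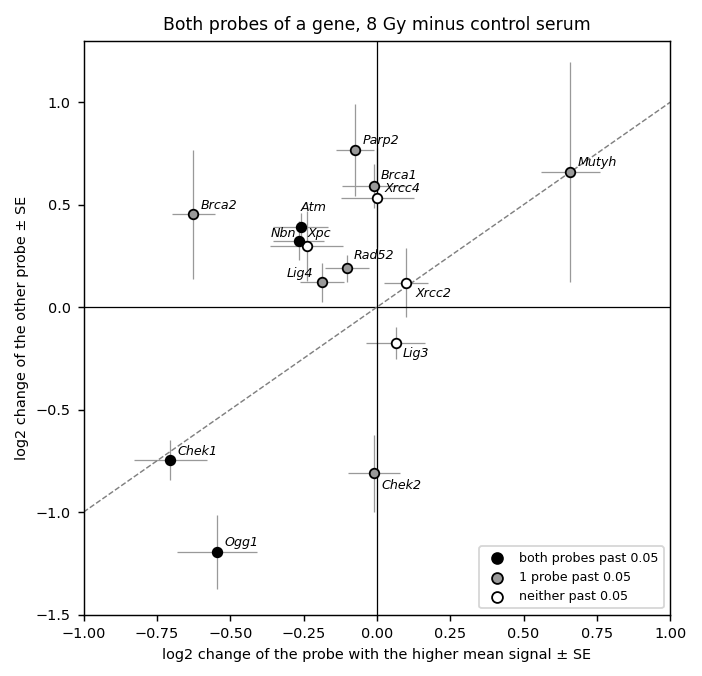
Each point is a gene with 2 tested probes, placed by the log2 change ± SE of the probe with the higher mean signal (across) and of the other probe (up) for 8 Gy against control serum; the dashed line marks equal change. Chek1 and Mutyh lie on or near the line, and Atm, Xpc, Brca2, Nbn and Lig4 lie in the upper left, where the probes have opposite signs. The other Mutyh probe was well above background on 4 of 5 arrays with 8 Gy serum and 1 of 5 control arrays.

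Genes of the cell cycle were counted in the same comparison. Of 29 proliferation genes, 4 rose, 13 fell and 12 did not pass with 8 Gy serum, where 17.3% of all genes rose and 28.8% fell. Their median log2 change was -0.23, against -0.094 for all genes. Their summed level was 264 to 281 times the 75th percentile with 8 Gy serum and 344 to 384 times with control serum. Mki67, a marker of dividing cells, fell by 0.31 ± 0.091 (limma adjusted p = 0.00874), and Pcna, the clamp of replication and repair synthesis, fell by 0.54 ± 0.076 (limma adjusted p = 1.95e-05). The part of these genes in the repair gene changes was not tested. In bulk RNA, fewer cells of a type and less RNA per cell cannot be told apart.
Of 64 other DNA repair genes tested, 11 rose and 23 fell, where 17.3% of all genes rose and 28.8% fell. Their median change of -0.13 is close to the -0.094 of all genes. Fancg, of the Fanconi core complex, rose by 0.85 ± 0.14, and Dclre1c, the nuclease that opens hairpin ends, by 0.54 ± 0.10. Polb, the gap-filling polymerase of base excision repair, fell by 0.73 ± 0.065, Brip1, a helicase of the recombination and crosslink routes, by 0.57 ± 0.068, and Rad1, of the checkpoint clamp, by 0.49 ± 0.066. Their limma adjusted p ranged between 1.37e-07 and 0.00023.

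With 4 Gy serum, 1 of the 39 genes changed against control serum in the 10-day set. That gene was Atm, which rose, where 4.50% of all genes rose and 1.47% fell. No member fell, and 9 members had an unadjusted p under 0.05, as did 22.1% of all genes. Of the calls over all genes, 75.4% were higher, against 56.4% when arrays were scaled to their median and 61.8% after quantile normalization. With median scaling 3.80% of all genes rose and 2.94% fell, and the member called was Prkdc, which was lower, in place of Atm. The median change was -0.0030 for the members and 0.0021 for all genes. Atm had -1.24, -1.29, -0.93, -0.79 and -0.996 with 4 Gy serum, against -1.47, -1.42, -1.52, -1.33 and -1.19 with control serum, which overlap, and it rose by 0.34 ± 0.095 (limma adjusted p = 0.0402). On the second Atm probe the change was -0.26 (limma adjusted p = 0.0351). In this set slide 1 held control replicates 1 to 4, slide 2 held control replicate 5 and irradiated replicates 1 and 2, and slide 3 held the other irradiated arrays. Within slide 2 the Atm change was -0.072, and the Atm signal of the slide 3 arrays was higher by 0.36 than that of the irradiated arrays on slide 2. With slide as a random block no member was called (Atm adjusted p = 0.675), and 0.00494% of all genes were. Leaving out any of control replicates 1 to 4 or irradiated replicates 3 to 5 also ended the Atm call (adjusted p 0.0641 to 0.142).
Signals did not overlap for 2 members, Prkdc and Xpa, against 7.89% of all genes tested. Prkdc had -0.46, -0.51, -0.76, -0.75 and -0.79 with 4 Gy serum, against -0.34, -0.37, -0.42, -0.44 and -0.38 with control serum. Its change was -0.26 ± 0.080 (limma adjusted p = 0.058). Xpa had -0.23, -0.33, -0.21, -0.13 and -0.18 with 4 Gy serum, against -0.42, -0.44, -0.37, -0.37 and -0.48 with control serum, a change of 0.20 that did not pass (limma adjusted p = 0.129). Other members did not pass either. Chek1 changed by 0.17, Brca1 by -0.17, Parp1 by -0.19, Xrcc6 by 0.30, Ddb2 by -0.16 and Xpc by -0.036. The 64 other repair genes had none called in either direction.

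The 2 responses were compared by the difference of the changes, 8 Gy in the 20-day set minus 4 Gy in the 10-day set. It passed for 16 of the 39 genes, 8 with a positive and 8 with a negative difference, where 12.2% of all genes had a positive and 22.0% a negative one. The smallest p-values were for Xpa (-1.14 ± 0.11, limma adjusted p = 1.77e-06), Neil1 (0.89 ± 0.13, limma adjusted p = 6.04e-05), Rad50 (0.56 ± 0.091, limma adjusted p = 0.00017) and Msh6 (-0.54 ± 0.088, limma adjusted p = 0.000205). For Neil1, the change was 0.89 at 8 Gy and -0.0066 at 4 Gy. For Xpa, it was -0.94 at 8 Gy and 0.20 at 4 Gy. With slide as a random block 17.9% of all genes and 10 of these 16 were still called, and Apex1, Atm, Fancd2, Mutyh, Ogg1 and Pms2 were not.

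The 20-day and 10-day sets also differed without irradiation. These comparisons share their arrays with the ones above, so a gene that is low in the 20-day controls contributes to both. With serum of irradiated mice, 31 genes differed between the 20-day and the 10-day set, 8 higher and 23 lower, where 29.2% of all genes were higher and 28.8% lower. The median change was -0.24 for the members and 0.0020 for all genes. With control serum, 26 differed, 9 higher and 17 lower, where 37.0% of all genes were higher and 29.4% lower. The medians there were -0.18 for the members and 0.067 for all genes. The lower members with each serum include Bard1, which passed the detection filter through the 10-day groups alone. Scaling to the array median moved the all-gene median with control serum to 0.20, and the member split there was 13 higher and 13 lower. With normexp background correction the all-gene median was 0.10 with irradiated and 0.22 with control serum, and the members split into 9 higher and 17 lower with irradiated and 12 higher and 15 lower with control serum. With slide as a random block, 25 members were called with irradiated and 23 with control serum, where 43.4% of all genes were called with irradiated and 54.6% with control serum. Of 29 proliferation genes, none was higher and 16 were lower with irradiated serum (median -0.38), and 7 were higher and 12 lower with control serum (median -0.12). Their part in the set differences was not tested. The sets lie on separate slides, so set and slide cannot be told apart.

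Xpa was the gene most raised in the 20-day controls, with 1.52, 1.18, 1.14, 1.12 and 1.17 there, against -0.42, -0.44, -0.37, -0.37 and -0.48 in the 10-day controls, a change of 1.64 ± 0.078 (limma adjusted p = 1.5e-12). With irradiated serum Xpa differed by 0.50. Ogg1 was higher by 0.40 with irradiated serum and by 0.99 ± 0.14 with control serum. Xrcc6 had 0.71, 0.87, 0.67, 0.45 and 0.54 in the 20-day controls, against 0.049, 0.18, 0.11, 0.14 and 0.060 in the 10-day controls, and rose by 0.54 ± 0.10. Pms2 had 0.096, 0.042, 0.067, -0.067 and -0.021 in the 20-day controls, against -0.32, -0.45, -0.42, -0.56 and -0.47 in the 10-day controls. The Pms2 change of 0.14 with irradiated serum did not pass, and that of 0.47 ± 0.064 with control serum did. Apex1, which cuts the strand at missing bases, was higher in both, by 0.70 with irradiated and 0.40 with control serum. The control value of Apex1 was 0.035 after quantile and 0.062 after loess normalization and did not pass there.
Fancd2 changed by -1.67 ± 0.16 and Mutyh by -1.57 ± 0.099 in the controls. Bard1 and Ercc2 had fitted changes of -1.55 ± 0.35 and -1.51 ± 0.33, but their probes were above background on 1 and 2 of the 5 20-day control arrays, so these sizes are uncertain. Fancd2 had -3.81, -4.14, -3.79, -3.86 and -3.75 in the 20-day controls, against -2.08, -2.22, -2.10, -2.28 and -2.33 in the 10-day controls. Mutyh had -3.65, -3.35, -3.61, -3.51 and -3.47 in the 20-day controls, against -1.73, -1.85, -1.83, -2.13 and -2.18 in the 10-day controls. Neither gene overlapped between the sets. Ercc2 had -4.13, -4.02, -4.20, -3.76 and -4.03 in the 10-day controls, above all of its 20-day control values given earlier. With normexp the Ercc2 set change was -0.32, and against the 20-day controls of slide 2 alone it was -0.46, both past the threshold. Bard1 passed the detection filter through the 10-day groups alone, so its direction between the sets was not free of the filter. With normexp background correction the Bard1 change with control serum was 0.20 and did not pass. With irradiated serum its probe was not well above background on any 20-day array, so the filter fixed the direction and no size is given. Bard1 counted as called lower there, and that call also ended with normexp (-0.038). Brca1 fell by 0.65 ± 0.11 with irradiated serum and by 0.81 ± 0.11 with control serum, and its second probe fell by 1.46 with control serum. With irradiated serum Chek1 changed by -0.76 and Brca2 by -0.70, and both passed. With control serum they changed by 0.12 and -0.15 and did not pass. Read by pathway, the kinases were lower with irradiated serum in all 3 genes, at -0.50 for Atm, -0.76 for Chek1 and -0.48 for Chek2, and with control serum in Chek2 alone (-0.27). The control call of Chek2 ended with median scaling (-0.14), quantile (-0.16) and loess (-0.13) normalization and with 20-day control slide 1 alone (-0.18), and the value was 0.14 with normexp and 0.12 with the mean of probes. With the mean of probes Chek2 was not called, and the other kinases Atm (-0.33) and Chek1 were. Chek1 was higher there, as its means were on both probes. In the MRN complex Rad50 changed by -0.42 with irradiated and -0.98 with control serum, and Nbn did not pass in either. Of 8 homologous recombination genes, 6 were lower and 1 higher with irradiated serum, where 28.8% of all genes were lower and 29.2% higher. With control serum 5 were lower and 1 higher, where 29.4% of all genes were lower and 37.0% higher. Both counts of lower genes include Bard1, whose direction was not free of the filter. The gene that was higher was Rad52 in both, by 0.41 with irradiated and 0.34 with control serum, and Xrcc2 changed by -0.90 with irradiated and -1.002 with control serum. With the mean of probes Xrcc2 changed by -0.35 with irradiated and -0.40 with control serum, and with normexp by -0.52 with control serum. Its second probe changed by 0.21 with irradiated and 0.20 with control serum and did not pass.
In end joining, 2 genes were higher and 1 lower with each serum. The shares of all genes given for recombination hold for the pathway counts here too. Prkdc was the lower gene, at -0.24 with irradiated and -0.76 with control serum, and its irradiated value did not pass with median scaling (-0.18) or normexp (-0.17). Lig4 was higher in both, at 0.19 with irradiated and 0.24 with control serum, Xrcc5 was higher with irradiated serum (0.48) and Xrcc6 with control serum. Both Lig4 calls ended with the mean of probes. The irradiated one also ended with slide as a random block, with no dim-probe filter and without some single arrays. The second Lig4 probe had means of -0.57 in the 20-day and -0.43 in the 10-day controls. With irradiated serum these were -0.45 and -0.53. Of 10 base excision genes, 7 were lower and 3 higher with irradiated serum, and 5 lower and 2 higher with control serum. Parp1 had 1.55, 1.48, 1.44, 1.58 and 1.50 with 8 Gy serum, against 2.17, 2.08, 1.99, 1.99 and 1.96 with 4 Gy serum, and changed by -0.53 there and by -0.83 with control serum. Neil1 changed by -0.26 with irradiated and -1.15 with control serum, where the irradiated value did not pass with median scaling (-0.19), normexp (-0.13), loess (-0.15) or the random slide block (-0.25). Xrcc1, the scaffold of single-strand break repair, changed by -0.45 with irradiated and -0.46 with control serum. Of 7 nucleotide excision genes, 2 were higher and 2 lower with irradiated serum, and 2 higher and 3 lower with control serum. Ddb1 changed by -0.92 with control serum, and its -0.18 with irradiated serum did not pass. Msh6 was lower with irradiated serum (-0.20) and higher with control serum (0.34), both past the threshold. The control value of Msh6 was 0.019 after quantile and 0.044 after loess normalization and did not pass. The irradiated value did not pass with median scaling (-0.14), normexp (-0.11), slide as a random block (-0.21) or slide 3 of the 10-day set alone (-0.15).

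**Figure D5:**
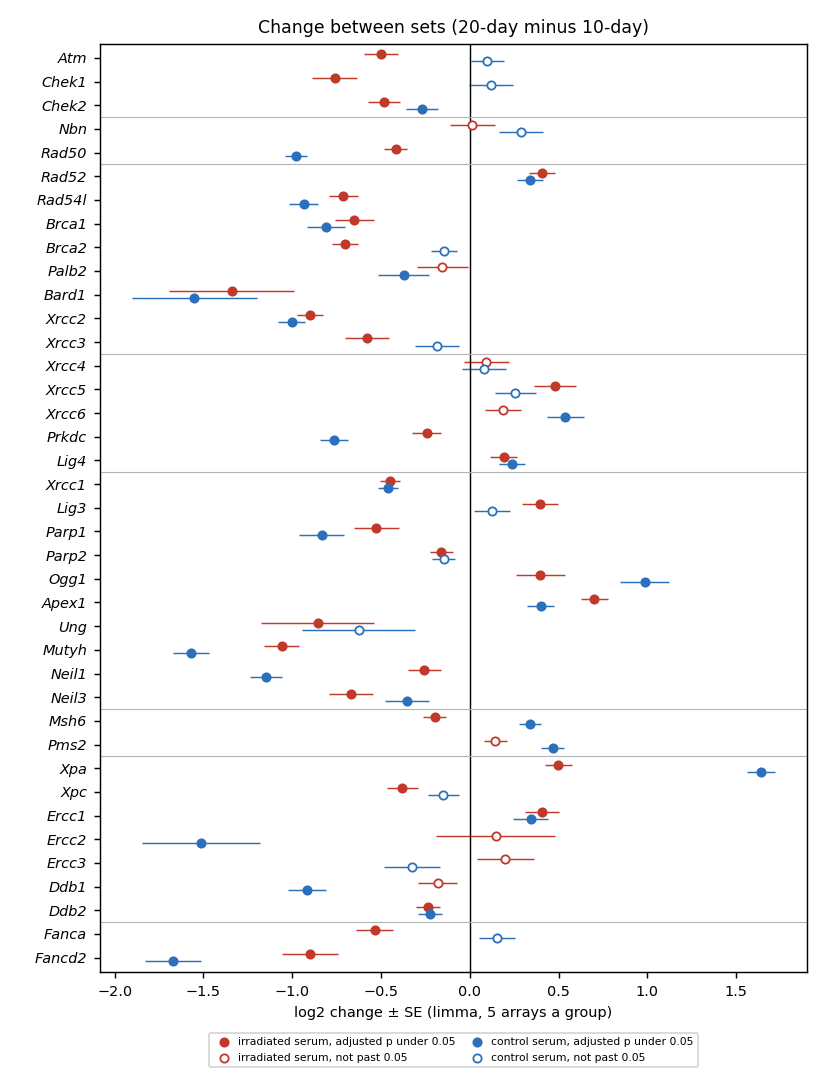
Points give the log2 change ± SE of each gene between sets, 20-day minus 10-day, for arrays with serum of irradiated mice (red) and with control serum (blue); filled points passed 0.05. Most filled points lie left of 0, and Xpa with control serum lies farthest right at 1.64.

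Macrophage markers differed between the sets as well. All 19 measured were higher in the 20-day set with both sera, with a median log2 change of 4.06 with irradiated and 4.10 with control serum. Their summed level was 89.8 to 104 times the 75th percentile with 8 Gy serum and 98.8 to 123 times in the 20-day controls. In the 10-day set it was 4.07 to 5.10 times with 4 Gy serum and 3.21 to 4.65 times with control serum. Ptprc, the leukocyte surface marker, differed by 4.66 with irradiated and 5.45 with control serum, and Spi1, a myeloid transcription factor, was well above background on 0 arrays of the 10-day set. Spi1 thus passed the detection filter through the 20-day set alone, and the filter fixed its direction. Adipocyte markers were higher in the 20-day set too (6 of 6 with irradiated and 5 of 6 with control serum), while all 5 skeletal muscle markers tested were lower. Adipoq was well above background on 0 arrays of the 10-day set, and Myog, Actn2 and Myh3 on 0 of the 20-day set. Any of these that was tested passed the filter through the other set alone, so the filter fixed its direction. Within the 20-day set, 6 of the 19 macrophage markers fell with 8 Gy serum and none rose, where 28.8% of all genes fell. In that comparison 5 of 7 neural, 3 of 4 endothelial and 3 of 6 adipocyte markers fell as well, and 1 adipocyte marker rose. Of 5 skeletal muscle markers 2 rose and 1 fell, of 16 fibroblast markers 3 rose and 3 fell, and none of 6 epithelial markers passed. The endothelial marker Cdh5 and the neural marker Gfap were well above background on 0 arrays of either 20-day group. The part of these markers in the repair gene differences was not tested. Of 16 fibroblast markers 3 were higher and 10 lower in the 20-day set with each serum, with medians of -0.52 with irradiated and -0.49 with control serum. Col1a1, a fibroblast collagen, changed by -0.45 with irradiated and -0.38 with control serum.
Of the 64 other repair genes, 12 were higher and 19 lower in the 20-day set with irradiated serum, and 24 higher and 18 lower with control serum. Across all genes, 29.2% were higher and 28.8% lower with irradiated and 37.0% higher and 29.4% lower with control serum. The 12 of 64 higher with irradiated serum are a smaller share than that of all genes. The other counts are near the shares of all genes. Polb was higher by 0.55 with irradiated and by 1.22 with control serum, and Cetn2, a partner of Xpc, by 0.80 with irradiated and 1.23 with control serum. Fancg changed by -1.80 with control serum, and Clspn, the adaptor that lets ATR activate Chek1, by -0.91 with irradiated and -1.29 with control serum.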

How the data were processed

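RNA of mouse embryonic fibroblasts was measured on 20 one-colour Agilent arrays, 5 in each of 4 serum groups. The authors deposited scanner output with processed signal intensity per spot, from Feature Extraction 10.5.1.1 per the file headers (11.0 per the submitters' processing notes), and a table of log2 values, centred per probe within each set, as a comparison with the recomputed values showed (correlation at least 0.992). The genome build in the file headers is mm9, and no coordinates of it are printed. The members and lists were chosen with earlier results of these data known.

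From the scanner files, log2 of the processed intensity minus each array's 75th percentile was taken. Control spots and outlier-flagged spots (50 to 181 per array) were left out and spots of a probe averaged. RefSeq named 24844 of 41174 probes. Tests used limma 3.58.1 in R 4.3.3 (lmFit and eBayes) with 1 fit of the 4 groups and Benjamini-Hochberg adjustment, and the pipeline was tested on simulated data. Named genes are the members, called or listed as examples, with the 3 smallest p-values per direction among the other repair genes, except 1 that is not reported here. The number of arrays limits the precision.

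Deviations of same-numbered arrays correlated at 0.14 to 0.41 in the 20-day set and at -0.053 to 0.19 in the 10-day set. In each set 2 of 5 numbers correlated best with their own. The main fit did not pair arrays, and replicate number entered as a block in an alternative only. Alternatives changed the scaling, background correction, dim-probe filter, probe choice, slide block and arrays.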

Additional observations from a re-analysis of the deposited data

Results flagged for a closer look

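Of 156 gene and group combinations, 13 held an array that stood apart from the other 4 by Dixon's criterion, where chance gives about 1 in 20. In irradiated 10-day arrays these were Xrcc1 replicate 5 (2.95), Pms2 replicate 2 (-0.50), Ercc3 replicate 3 (1.67), all low, and Fancd2 replicate 4 (-1.84), high. In 10-day controls they were Xrcc1 replicate 2 (2.89) and Fanca replicate 4 (0.30), low, and Neil3 replicate 1 (0.24), high. With 8 Gy serum they were Xrcc4 replicate 2 (0.90), high, and Ung replicate 2 (-2.004), low. In 20-day controls they were Bard1 replicate 4 (-5.60), Lig3 replicate 3 (-0.73) and Xpa replicate 1 (1.52), high, and Fancd2 replicate 2 (-4.14), low.

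The log2 response to 8 Gy serum differed from that to 4 Gy serum for 16 genes (limma, adjusted p under 0.05), with the difference given as 8 Gy minus 4 Gy. It was positive for Rad50 (0.56), Prkdc (0.52), Apex1 (0.30), Mutyh (0.51), Neil1 (0.89), Ercc2 (1.66), Ddb1 (0.74) and Fancd2 (0.77). It was negative for Atm (-0.60), Chek1 (-0.88), Brca2 (-0.56), Ogg1 (-0.59), Msh6 (-0.54), Pms2 (-0.32), Xpa (-1.14) and Fanca (-0.69).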

How the results depend on the processing

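Of the 22 members called with 8 Gy serum, 10 kept their call in every setting that tested them (Chek1, Ogg1, Neil1, Msh6, Pms2, Xpa, Ercc2, Ddb1, Fanca and Fancd2). Of 16 differences of response 7 kept theirs, as did 17 of 26 set differences with control serum and 17 of 31 with irradiated serum. Scaling to the array median shifted the median of all genes with 8 Gy serum to -0.24 and split the members into 6 higher and 17 lower. With control serum it gave 13 higher and 13 lower between sets. No scaling reversed a called member with 8 Gy serum. The 10-day result depended on the arrays and settings. Members called with 4 Gy serum numbered 2 after quantile or loess normalization, 3 with only the 2 groups or with the deposited table (Prkdc, Ung and Xpa, without Atm), 1 with median scaling (Prkdc in place of Atm) and with normexp (Xrcc6 in place of Atm), and 0 with no dim-probe filter, with the mean of probes, or with slide as a random or fixed block. Leaving out 1 array gave 0 to 4. Without slide 2 there were 8, with irradiated slide 3 only 9, and with slide 2 only 0 (settings chosen after seeing the data). Genes called with 4 Gy serum were 786 when all arrays had to be above background, 2576 with 2 groups, 1 with the random and 20 with the fixed slide block, 2573 in the deposited table, 219 to 2109 without 1 array, 3754 without slide 2, 0 with slide 2 only and 3770 with slide 3 only. With the random block, 5912 genes were called with 8 Gy serum, 3622 differed in response, and 10 members did. The replicate block gave 2 members with 4 Gy serum, 1578 genes, and changed no other call of a member with 8 Gy serum. Signs turned as follows, and the cause was not tested. With the fixed slide block Atm was -0.072 with 4 Gy serum. With the mean of probes, 8 Gy changes were 0.065 for Atm, 0.29 for Brca1, 0.35 for Parp2 and 0.029 for Xpc, the Atm difference of response was 0.026, and in the set comparison with control serum Atm was -0.33 and Chek2 0.12. With normexp, 8 Gy changes were -0.20 for Xrcc1 and 0.069 for Xpc, and set changes with control serum 0.14 for Chek2, 0.034 for Palb2, 0.20 for Bard1 and 0.033 for Ddb2. Ercc1 was -0.056 with quantile and -0.068 with loess normalization in that comparison.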
